A study of Mus musculus with 4 samples.

Results

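Acta2-high cells are the C3H 10T1/2 cells that gave the largest share of their transcripts to 3 contractile genes, Acta2, Tagln and Cnn1. A barcode was kept when it held at least 5000 UMIs (unique molecular identifiers, each standing for 1 captured transcript), at least 1500 genes and at most 20% mitochondrial UMIs, which left 22049 cells in 4 libraries. Members were selected on measured values: within each library they were the top 5% of kept cells by the summed share of Acta2, Tagln and Cnn1, provided that Actc1, Mylpf and Myl1, 3 sarcomere genes of striated muscle, together made up less than 0.2% of UMIs. This gave 909 of the 22049 cells (4.12%), with 186 in the H3WT DMSO library, 237 in H3R26C DMSO, 224 in H3WT 5-Aza and 262 in H3R26C 5-Aza. They were set against the 10995 cells at or below the median share of their own library and under the same limit on the sarcomere genes, called Acta2-low cells here. Those numbered 1855, 2364, 2982 and 3794 in the same library order, and this order is used for every list of 4 values that follows.

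C3H 10T1/2 is an established mouse mesenchymal progenitor line, derived as 1 clone, that can give rise to fat, muscle and other mesenchymal cell types. All 4 cultures carried a tagged human histone H3.1 transgene delivered by a lentiviral vector with the EF1 promoter and puromycin selection, either wild type (H3WT) or with arginine 26 changed to cysteine (H3R26C), and all kept their own mouse H3 genes. The 5-Aza cultures were exposed to 3 µM 5-azacytidine, a DNA methyltransferase inhibitor, for 24 h and collected on day 28, and the DMSO cultures received the vehicle. Each combination of transgene and treatment was 1 library of droplet-based 3′ single cell RNA sequencing, so single conditions could not be tested against each other. Every test below rests on the difference between the classes within each library, and where that difference is compared between treatments or transgenes, the 2 libraries of each serve as replicates.

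Acta2 encodes the smooth muscle isoform of actin, Tagln an actin-bundling protein known as SM22 alpha, and Cnn1 calponin, which binds actin and tropomyosin. Fibroblasts and mesenchymal progenitors switch on Acta2 when they build thick actin stress fibres, and mature smooth muscle adds a heavy chain of its own, Myh11, under the coactivator myocardin. Many of these genes are known targets of serum response factor (Srf), a transcription factor that binds the CArG box and that responds, through its actin-sensing coactivators, to the state of the actin cytoskeleton.

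The promoters of contractile genes that were higher in Acta2-high cells show where such letters stand, so 5 of them are printed ahead of the values. The CArG box was searched as CC, then 6 letters that are each A or T, then GG, a pattern that reads the same way on both strands. Windows ran from 250 bases before to 50 bases after the RefSeq start (GRCm38.p6), and 1.81% of the 27025 genes with a window held the motif. Of the 29 genes of the contractile and actin lists that were higher, 26 had a window and 5 of those held a match, namely Myl9, Cnn2, Myl6, Actg1 and Vcl. The motif is in capitals and is flanked by up to 35 bases of the upstream window, 5′ to 3′ on the strand of the gene.
Myl9: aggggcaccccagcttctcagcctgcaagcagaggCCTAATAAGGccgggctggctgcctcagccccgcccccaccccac
Cnn2: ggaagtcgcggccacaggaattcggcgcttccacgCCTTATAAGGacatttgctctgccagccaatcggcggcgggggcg
Myl6: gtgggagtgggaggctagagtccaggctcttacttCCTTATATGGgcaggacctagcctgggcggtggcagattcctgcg
Actg1: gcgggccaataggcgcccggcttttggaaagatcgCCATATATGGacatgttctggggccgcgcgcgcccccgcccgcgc
Vcl: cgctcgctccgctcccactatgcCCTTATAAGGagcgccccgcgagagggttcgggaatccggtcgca

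These stretches lie at chr2:156775268-156775347 on the plus strand for Myl9, chr10:79988509-79988588 (plus) for Cnn2, chr10:128493015-128493094 (minus) for Myl6, chr11:120348541-120348620 (minus) for Actg1 and chr14:20929148-20929215 (plus) for Vcl. The motif began at -161, -56, -50, -90 and -227 relative to the start of Myl9, Cnn2, Myl6, Actg1 and Vcl. The window of Acta2, the gene that made up nearly all of the gate, held no full CArG box. It held a motif with a single C or G among the 6 middle letters at -84 and another at -34, a looser pattern that 9.69% of all windows hold.
The first of these is printed.
Acta2: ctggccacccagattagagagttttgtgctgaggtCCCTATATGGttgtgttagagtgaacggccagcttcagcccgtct
This stretch is chr19:34255413-34255492 on the minus strand. The full motif stood in 16 of the 228 higher genes with a window (7.02%), in 3 of the 289 lower genes with a window (1.04%), and in 1.65% of the 10185 tested genes with a window. A match describes letters in a window and is not evidence of binding.

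Acta2 itself (chr19:34241090-34255590, minus strand) supplied 99.1%, 98.2%, 93.3% and 95.5% of the gate's UMIs in the Acta2-high cells of the 4 libraries. Its level there was 2065 CPM (UMI counts scaled to a total of 1000000 over the summed cells) in H3WT DMSO, 2809 in H3R26C DMSO, 3669 in H3WT 5-Aza and 3518 in H3R26C 5-Aza, against 9.06, 6.42, 20.6 and 24.2 in Acta2-low cells. These levels were used to choose the cells and are given as a description only. The rule fixed the share of cells, not the level, and the 2 5-Aza libraries sat above the 2 DMSO libraries in both classes. Single members held between 7 and 357 Acta2 UMIs, with medians of 42, 51, 41 and 44.

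Tagln (chr9:45929619-45936058, minus strand) was uneven among the members. Its level in Acta2-high cells was 18.8 CPM (95% exact Poisson interval 15.2 to 23.0) in H3WT DMSO, 51.2 (45.1 to 57.9) in H3R26C DMSO, 262 (245 to 279) in H3WT 5-Aza and 166 (154 to 179) in H3R26C 5-Aza. The levels in Acta2-low cells ran from 0.166 to 1.01. Tagln was also used to choose the cells, so these levels are a description only, and the intervals carry no spread between cultures. A Tagln UMI was seen in 228 of the 909 members (25.1%), with shares of 9.14%, 23.2%, 38.4% and 26.7% by library. After every cell was thinned to 5000 UMIs the shares were 6.99%, 9.70%, 30.8% and 17.9%, against 0.0%, 0.0423%, 0.268% and 0.422% of Acta2-low cells. Members with a Tagln UMI had a summed Acta2 level of 1850, 3353, 3918 and 4124 CPM and members without one had 2086, 2632, 3487 and 3273, so the order of these groups was not the same in every library. The intervals here and below cover counting error only.

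Cnn1 was nearly absent. The members held 10 Cnn1 UMIs in all, with 1, 1, 6 and 2 by library, and the 22049 kept cells held 62. The level in Acta2-high cells was 0.198, 0.202, 1.71 and 0.490 CPM. Myh11, the smooth muscle myosin heavy chain, had 1, 0, 3 and 5 UMIs in the 4 sums of Acta2-high cells, where a count of 0 in H3R26C DMSO allows up to 0.605 CPM (3 counts of the total), or 0.743 CPM by the exact Poisson interval. Its fitted difference between the classes was 0.11 ± 0.84 on the log2 scale (SE, adjusted p = 0.952, edgeR quasi-likelihood test). Myocd, which encodes myocardin, had 3 UMIs in the 909 members and 23 in the Acta2-low cells, and Kcnmb1, a smooth muscle channel subunit, had 0 and 4. In CPM, Myocd was at 0.198, 0.202, 0.284 and 0 in Acta2-high cells against 0.214, 0.152, 0.168 and 0.0184. With 1 of the 3 gate genes close to 0 and the defining markers of mature smooth muscle at or near 0, the cells are named here after Acta2 and not after a cell type.

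**Figure D1:**
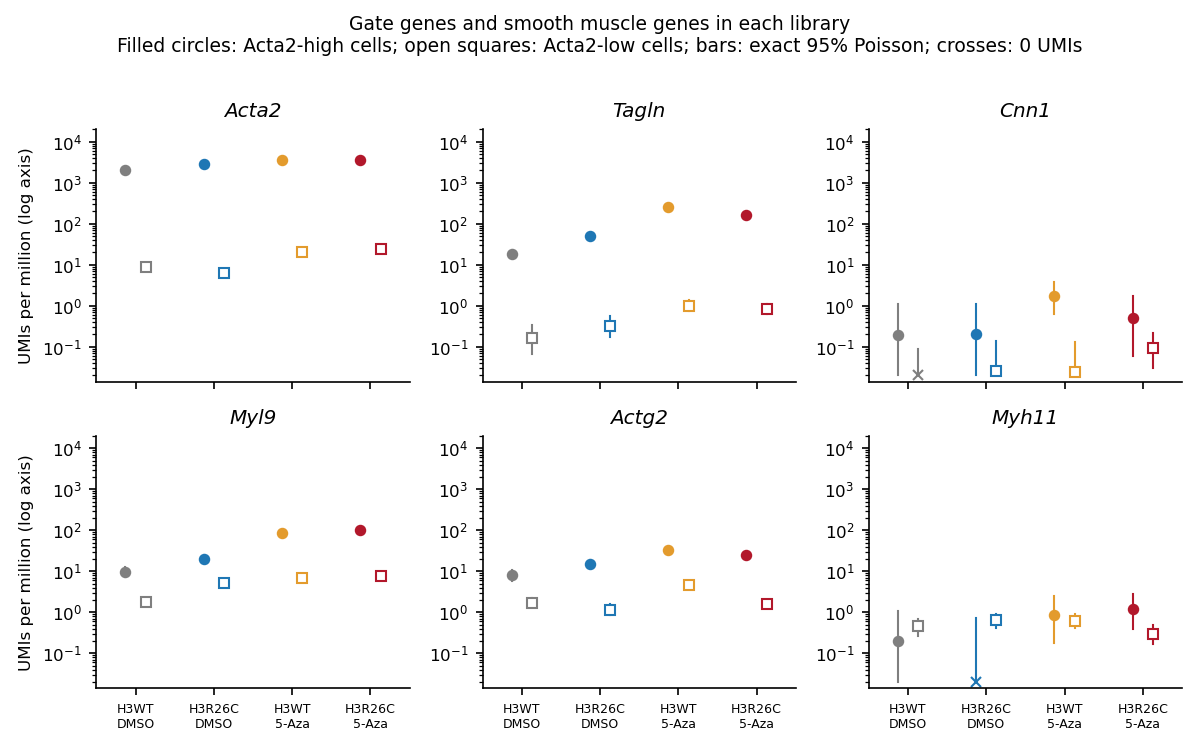
Level in CPM (log axis) of the gate genes Acta2, Tagln and Cnn1 and of Myl9, Actg2 and Myh11, in Acta2-high cells (filled circles) and Acta2-low cells (open squares) of each library. Bars are exact 95% Poisson intervals and crosses mark sums with 0 UMIs. Acta2 was at 2065 CPM or more in the 4 sums of Acta2-high cells, and Cnn1 and Myh11 were at 1.71 CPM or less.

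The threshold share of UMIs was 0.0965%, 0.147%, 0.195% and 0.195% in the 4 libraries, and the library medians were 0.00476%, 0.00552%, 0.00913% and 0.00990%. The lowest members lay at 0.0973%, 0.147%, 0.196% and 0.197%, and the highest cells below the threshold and under the sarcomere limit lay at 0.0955%, 0.147%, 0.194% and 0.195%. The share is a range with no gap at the threshold: 114 members lay within 10% above it and 120 cells within 10% below it. At the other end, 39.9%, 44.4%, 35.8% and 34.0% of kept cells had no UMI of any gate gene.

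The limit on sarcomere genes removed 195 of the 1104 cells in the top 5%, of which 0 came from the DMSO libraries, 76 from H3WT 5-Aza and 119 from H3R26C 5-Aza. Those 76 and 119 cells had more Acta2 than the members, 7414 and 5407 CPM, and less Tagln, 33.6 and 47.0 CPM. Their Mylpf, a fast skeletal muscle light chain, stood at 13582 and 14950 CPM. Of all kept cells past the sarcomere limit, 50% in H3WT 5-Aza and 50.2% in H3R26C 5-Aza were in the top 5% for Acta2, Tagln and Cnn1.

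Because each library gave a fixed share of its cells, a common threshold at the top 5% of all kept cells pooled (0.166% of UMIs) was also applied. By this threshold, and under the sarcomere limit, 88 of 3710 cells (2.37%, 95% exact binomial interval 1.91% to 2.91%) qualified in H3WT DMSO and 201 of 4727 (4.25%, 3.69% to 4.87%) in H3R26C DMSO. In the treated libraries 276 of 5993 (4.61%, 4.09% to 5.17%) qualified in H3WT 5-Aza and 328 of 7619 (4.31%, 3.86% to 4.79%) in H3R26C 5-Aza. The H3WT DMSO share lay below the other 3, whose intervals overlapped. These shares leave out 0, 0, 81 and 129 further cells that passed the common threshold but not the sarcomere limit. With every cell thinned to 5000 UMIs the shares were 2.56%, 4.08%, 4.59% and 4.45%. These differences between libraries were not tested.

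Cells chosen by 2 of the gate genes were then used to read the third, which the choice had not used. In cells of the top 5% by Tagln and Cnn1 alone, which in the DMSO libraries were all the cells with a UMI of either gene (91 and 210 cells), Acta2 stood at 620, 1151, 1421 and 1219 CPM, against 223, 276, 290 and 299 in cells with no UMI of either. Acta2 was higher in all 4 libraries, by 2.00 ± 0.16 on the log2 scale (SE, adjusted p = 0.0307, edgeR quasi-likelihood test over all genes). The estimate was 1.96 without H3R26C DMSO (adjusted p = 0.155) and 1.98 without H3R26C 5-Aza (adjusted p = 0.140). It also missed the threshold, at estimates from 1.87 to 2.44, without a filter on low counts (adjusted p = 0.0532), with the top 2% (0.0935), against cells matched on UMIs (0.0871), with a stricter cell filter (0.0543) and in less cycling cells (0.0968). In cells of the top 5% by Acta2 and Cnn1 alone, Tagln stood at 16.0, 37.1, 226 and 158 CPM against 0.665, 1.78, 5.30 and 2.82. This difference was 5.21 ± 0.30 on the log2 scale (adjusted p = 0.00380), and 5.06 (adjusted p = 0.0563) without H3WT 5-Aza. Cnn1 in cells chosen by Acta2 and Tagln was too low to be tested, with 1, 1, 3 and 2 UMIs.

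Across the genome, 13389 genes other than the 6 used by the rule were compared between Acta2-high and Acta2-low cells, with 1 sum of UMIs per class and library. At an adjusted p below 0.05 (edgeR quasi-likelihood test), 281 genes (2.1%) were higher and 351 (2.62%) were lower in Acta2-high cells, and 266 and 351 of them had the same sign in all 4 libraries. The median log2 difference over all genes tested was -0.02. DESeq2 called 895 and 641. The counts depended on single libraries: they were 3 and 6 without H3WT 5-Aza, 25 and 13 without H3WT DMSO, 228 and 265 without H3R26C DMSO, and 711 and 579 without H3R26C 5-Aza. The 9 genes that stayed past the threshold in each of the 4 fits were Cnn2, Cryab, Eno3, Cfd, Hp, Mgst1, Pi16, Retn and Scara3, a set named after its values were seen. Of these, Cfd and Retn could pass the filter on low counts only through Acta2-low cells. Their direction was fixed, so their calls say nothing on stability.

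The smooth muscle contractile list had 26 of its 27 genes tested, of which 15 were higher and 0 lower, with a median log2 difference of 1.05. Myl9, which encodes the regulatory light chain of smooth muscle and non-muscle myosin, stood at 9.90, 20.2, 85.3 and 102 CPM in Acta2-high cells and at 1.83, 5.33, 6.97 and 7.63 in Acta2-low cells. Every Acta2-high sum was above every Acta2-low sum, and the rise was 3.06 ± 0.39 (adjusted p = 0.0266). Actg2, the enteric smooth muscle actin, rose by 3.19 ± 0.32 (adjusted p = 0.00789), from 1.74, 1.17, 4.68 and 1.64 to 8.12, 15.5, 32.4 and 24.5 CPM. Its sequence is close to that of Acta2, and whether reads of these actin transcripts were fully told apart was not tested.

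The myosin and tropomyosin members with the highest levels rose by less. Myl6, the essential light chain, was at 2252, 2413, 2099 and 1829 CPM in Acta2-high cells and at 1221, 1280, 1307 and 1097 in Acta2-low cells, a rise of 0.83 ± 0.07 (adjusted p = 0.00359). Tpm1, an alpha-tropomyosin, was at 1708, 1519, 2400 and 1663 against 1002, 1114, 988 and 596, a rise of 1.02 ± 0.19 (adjusted p = 0.0492). Tpm2, a beta-tropomyosin, rose by 1.35 ± 0.20 (adjusted p = 0.0283) and was at 170, 305, 267 and 356 against 63.8, 79.4, 110 and 223. In the H3R26C 5-Aza library the Tpm2 levels of the classes were closest, and its Acta2-low sum exceeded the Acta2-high sum of H3WT DMSO.

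Calponin 2 (Cnn2), the calponin found widely outside smooth muscle, was at 528, 722, 587 and 762 CPM in Acta2-high cells and at 184, 224, 223 and 334 in Acta2-low cells. The classes did not overlap, and the rise was 1.47 ± 0.09 (adjusted p = 0.00069). Tagln2, a relative of Tagln, rose by 1.39 ± 0.23 (adjusted p = 0.0421) and Csrp1, a LIM protein of the actin cytoskeleton, by 1.29 ± 0.09 (adjusted p = 0.00200). The other members past the threshold were Nexn, Des, Itga8, Pdlim7, Pdlim5, Tpm4 and Cald1, with rises from 0.43 to 1.61. Smtn (0.35 ± 0.08, adjusted p = 0.0511), Lmod1 (1.16 ± 0.29, adjusted p = 0.0787) and Mylk (0.20 ± 0.09, adjusted p = 0.202) did not pass it. Leaving out H3WT 5-Aza left 1 of the 15 genes of this list past the threshold and leaving out H3WT DMSO left 4, with list medians of 0.92 and 1.13.

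The actin cytoskeleton list had 14 of 36 genes higher and 0 lower, with a median of 0.56. Actg1 and Actb, the cytoplasmic actins, rose by 0.92 ± 0.09 and 0.81 ± 0.08 (adjusted p = 0.00458 and 0.00433). Actb was at 6416, 7362, 5298 and 5916 CPM in Acta2-high cells and at 3518, 3904, 3383 and 3633 in Acta2-low cells. Every library gave a rise of much the same size, and the sums of the classes did not overlap. Actn1, the alpha-actinin of stress fibres, was at 332, 244, 263 and 206 against 141, 119, 106 and 120, a rise of 1.12 ± 0.09 (adjusted p = 0.00286). Vcl (vinculin), Flna (filamin A), Myh9 (non-muscle myosin heavy chain IIA), Myl12a and Tmsb4x rose by 0.82, 0.74, 0.80, 0.87 and 0.81. Without H3WT 5-Aza 0 genes of this list remained past the threshold and without H3WT DMSO 3 did, with medians of 0.58 and 0.57.

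**Figure D2:**
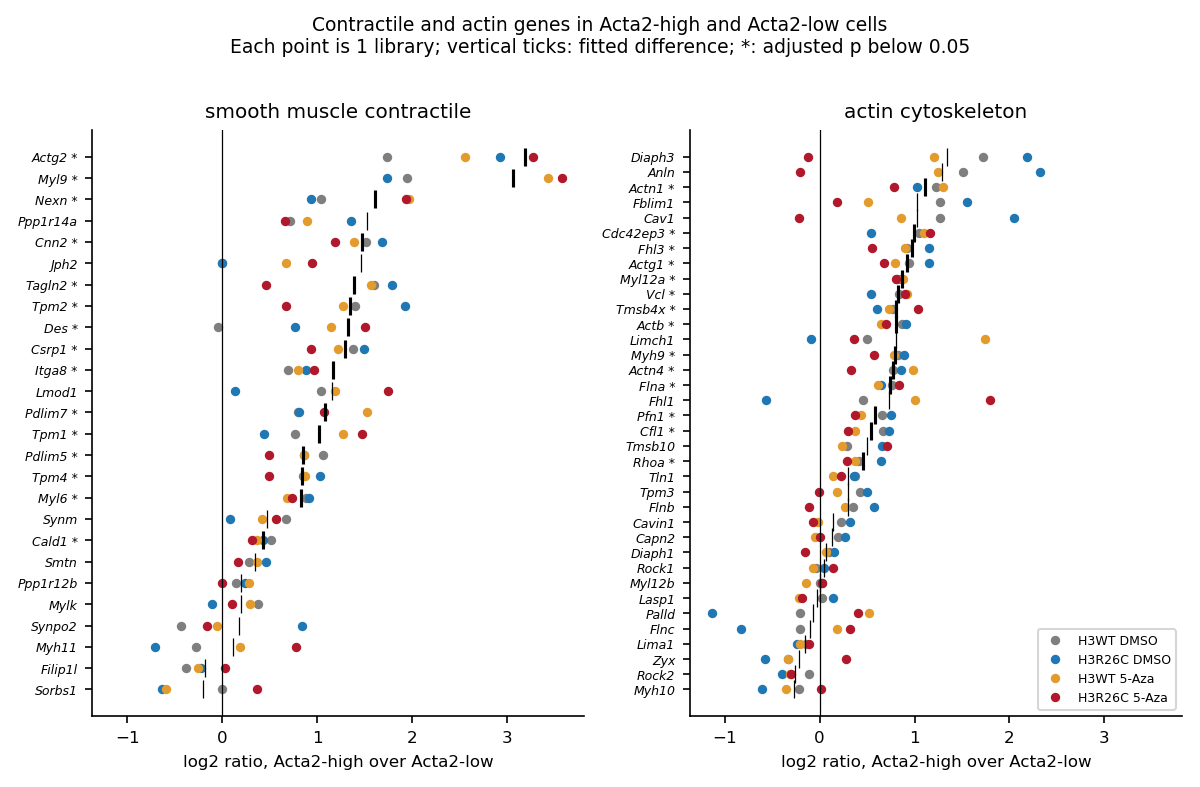
log2 ratio of Acta2-high over Acta2-low cells for each tested gene of the smooth muscle contractile list (left) and the actin cytoskeleton list (right), 1 point per library, computed on CPM plus 1. Vertical ticks are the fitted difference, which for low genes such as Actg2 lies outside most points because it uses no such offset, and asterisks mark an adjusted p below 0.05. 15 genes on the left and 14 on the right passed, all of them higher.

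Among focal adhesion and integrin genes 6 of 21 were higher and 0 lower (median 0.33). They were Ilk (integrin-linked kinase, 0.71 ± 0.06), Tgfb1i1 (the adaptor Hic-5, 0.91 ± 0.08), Lpp, Parva, Lims1 and Vasp. Of the regulators, 2 of 21 were higher and 0 lower (median 0.11). With DESeq2 4 were higher and 3 lower, and without the filter on low counts 2 were higher and 3 lower. Srf rose by 0.91 ± 0.13 (adjusted p = 0.0148), from 17.6, 12.96, 13.9 and 10.9 to 25.7, 24.8, 31.0 and 20.3 CPM, and Mef2c, a myocyte enhancer factor, rose by 1.01 ± 0.16 (adjusted p = 0.0228). The Srf coactivator genes Mrtfa and Mrtfb gave 0.11 ± 0.15 and -0.21 ± 0.10, and neither passed. The Yap and Tead target list had 4 of 26 genes higher (Ankrd1, Amotl2, Cdc42ep3 and F3) with a median of 0.05. Ccn2, the best known of its targets, stood at 103, 27.4, 500 and 106 against 43.5, 33.2, 60.6 and 21.4 and did not pass (adjusted p = 0.168). Without H3WT 5-Aza 0 genes of these 3 lists remained past the threshold, and without H3WT DMSO there were 1, 0 and 1.

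Genes of the TGF-beta and matrix lists passed in both directions, with 2.1% higher and 2.62% lower among all genes tested. Of 28 TGF-beta pathway genes and targets, Ltbp2 was higher (0.96 ± 0.18) and the coreceptor Tgfbr3 (-0.82 ± 0.11) and Ltbp1 (-1.23 ± 0.19) were lower. Of 38 fibrillar and myofibroblast matrix genes 4 were higher and 2 lower, with a median of 0.09. Serpinh1, a collagen chaperone, rose by 0.39 ± 0.07 and Col11a1, a minor fibrillar collagen chain, by 1.47 ± 0.20 (adjusted p = 0.0225), together with P4ha2 and Fmod. The proteoglycan Vcan fell by 0.93 ± 0.09 (adjusted p = 0.00458) and Col6a3 fell by 0.63 ± 0.09 (adjusted p = 0.0145). Col1a1 was at 3095, 3192, 3252 and 3808 CPM in Acta2-high cells and at 3134, 3216, 2532 and 3015 in Acta2-low cells, with no difference past the threshold (adjusted p = 0.271). Neither list kept a gene past the threshold without H3WT 5-Aza or without H3WT DMSO.

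Outside these lists, the next genes are those with the largest rises among genes with the same sign in all 4 libraries and at least 50 CPM in the higher class. Mustn1, a small nuclear protein of the musculoskeletal system, was at 197, 115, 178 and 54.8 CPM against 45.4, 51.6, 36.4 and 23.0, a rise of 1.74 ± 0.22 (adjusted p = 0.0225). Cryab, a small heat shock protein that protects desmin and other filaments, was at 168, 154, 294 and 190 against 62.3, 41.0, 90.6 and 69.4, a rise of 1.65 ± 0.10 (adjusted p = 0.00069). Eno3, the muscle enolase, rose by 1.62 ± 0.08 (adjusted p = 0.000436), with 12.3, 24.4, 47.7 and 168 against 4.09, 7.20, 17.3 and 55.9. Cryab kept its classes apart in all 4 libraries, whereas Eno3 levels differed between libraries in both classes and the ratio within each library was steadier.

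The intermediate filament gene Nes rose by 1.74 ± 0.18 (adjusted p = 0.00939) and Klhdc8a by 1.64 ± 0.16 (adjusted p = 0.00918). Tnfrsf11b, the decoy receptor osteoprotegerin, rose by 1.62 ± 0.23, and Fst (follistatin), a secreted inhibitor of activin and myostatin, by 1.49 ± 0.14 with 46.5, 68.5, 183 and 134 against 15.3, 21.8, 54.9 and 72.7. The matrix proteoglycan Prelp and the tetraspanin Cd82 rose by 1.33 ± 0.14 and 1.30 ± 0.10.

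Among genes with the same sign in all 4 libraries and at least 50 CPM in the higher class, the largest fall was that of Pi16. Pi16, a marker of adventitial fibroblast progenitors, was at 11.5, 5.44, 14.2 and 5.39 CPM in Acta2-high cells and at 90.5, 69.8, 156 and 47.7 in Acta2-low cells. The classes did not overlap, and Pi16 fell by 3.28 ± 0.12 (adjusted p = 0.000102). Clec3b (tetranectin) was at 901, 364, 941 and 447 against 2096, 1898, 2662 and 874, and fell by 1.49 ± 0.25 (adjusted p = 0.0430). The surface markers Ly6c1 and Ly6c2 fell by 1.81 ± 0.22 and 1.38 ± 0.19. Their sequences are close, and whether reads of the pair were fully told apart was not tested.

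Hp (haptoglobin) fell by 2.36 ± 0.18 (adjusted p = 0.00431) and was at 22.6, 22.4, 7.11 and 12.0 against 81.7, 113, 64.0 and 68.0. Lpl (lipoprotein lipase) fell by 1.98 ± 0.25 and Pcolce2, an enhancer of procollagen processing, fell by 1.35 ± 0.20. Pi15, a secreted protease inhibitor relative, fell by 2.44 ± 0.30, Cib3 fell by 2.76 ± 0.44 and the semaphorin Sema3c fell by 1.65 ± 0.28. Of the mesenchymal progenitor list, 4 of 10 tested genes were lower (Pi16, Ly6c1, Ly6a and Pdgfra) and 0 higher, with a median of -0.16, which was 0.31 without the filter on low counts. Of the 10, 5 had a difference above 0, and 3 were called higher and 4 lower with DESeq2, and 2 higher and 4 lower without H3R26C 5-Aza. Ly6a, the gene for the stem cell antigen Sca-1, was at 446, 400, 362 and 1037 against 716, 880, 1329 and 1842 and fell by 1.10 ± 0.20 (adjusted p = 0.0476). Without H3WT DMSO and without H3WT 5-Aza only Pi16 of this list passed. Of the 25 genes named for the largest rises and falls, 8 stayed past the threshold without H3WT DMSO, 19 without H3R26C DMSO, 5 without H3WT 5-Aza and 25 without H3R26C 5-Aza.

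Levels were then followed along the whole range of the gate share, in 6 bins of cells from those with no gate UMI to the top 5%. Cnn2, Csrp1 and Actg2 were higher at each of the 5 steps in all 4 libraries, and Actn1 was in 3 libraries and at 4 of 5 steps in H3R26C 5-Aza. Tpm1 was higher at 3 of 5 steps in H3R26C DMSO and Tpm2 at 4 of 5 in H3WT DMSO, and each at 5 of 5 in the remaining libraries. In the bin between the 75th and 90th percentiles Cnn2 was already at 296, 371, 363 and 455 CPM, between its level in cells with no gate UMI (174, 218, 212 and 324) and its level in the members. Clec3b was lower at each step in all 4 libraries, from 2212, 1943, 2842 and 875 in cells with no gate UMI. Myl9 was higher at 5 of 5 steps in the 5-Aza libraries, with 21.8 and 21.8 CPM in that bin and 85.3 and 102 in the top bin, and at 4 of 5 steps in the DMSO libraries.

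**Figure D3:**
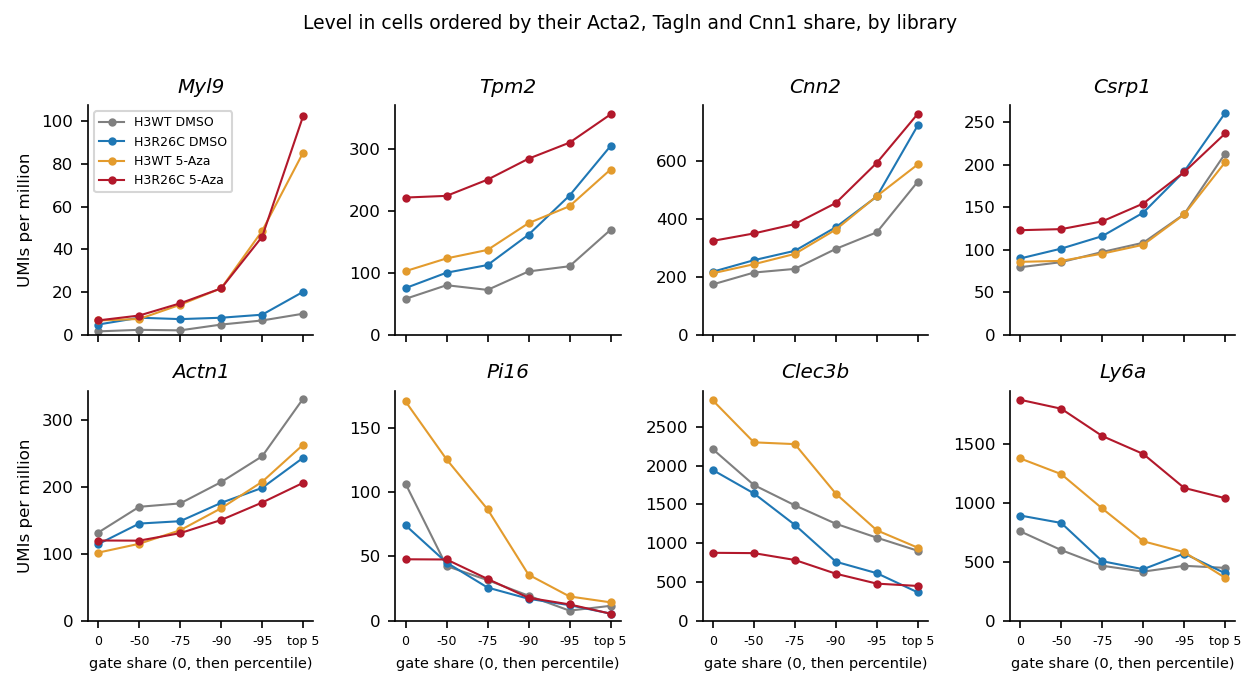
Level in CPM of 8 genes in cells ordered by their share of Acta2, Tagln and Cnn1 UMIs, 1 line per library. The horizontal axis gives cells with no gate UMI, then cells up to the 50th, 75th, 90th and 95th percentiles, then the top 5%. Cnn2 and Csrp1 are higher and Clec3b is lower at each step in all 4 libraries.

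Markers of other cell types moved with the classes in a way that differed by library. The skeletal muscle list, which left out the 3 genes of the rule, had 9 of 23 tested genes higher and 0 lower, with a median of 1.01, and 5 of 23 without H3WT DMSO. Without H3WT 5-Aza or without H3R26C 5-Aza 8 genes of the list could still be tested, of which 0 and 2 were higher. With a sarcomere limit of 0.05%, which left 202 and 234 members in the 5-Aza libraries, 1 of 23 was higher and the median was 0.53. Its summed level was 34.9, 32.5, 1568 and 1316 CPM in Acta2-high cells and 31.5, 28.7, 701 and 517 in Acta2-low cells. Myog (myogenin), the factor of early muscle differentiation, had 0 UMIs in both classes of both DMSO libraries, and was at 212 and 233 CPM in the Acta2-high cells of the 5-Aza libraries against 7.06 and 9.49. The fusion genes Mymk and Mymx followed the same order there, with 66.5 and 40.6 against 3.99 and 5.20 for Mymk, and 36.7 and 97.7 against 2.16 and 4.83 for Mymx. The most abundant gene of the list in Acta2-high cells was Tnni1 in the DMSO libraries, Ttn in H3WT 5-Aza and Myog in H3R26C 5-Aza, and Myf6 was at 0 in every sum.

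A UMI of Myog, Mymk or Mymx was seen in 2, 1, 39 and 88 of the members (1.08%, 0.422%, 17.4% and 33.6%) and in 0.270%, 0.127%, 11.3% and 19.9% of Acta2-low cells. When all such cells were left out of both classes, a choice that itself lowers the skeletal muscle list, 0 of its 20 genes still tested passed the threshold. The contractile list then had 14 of 25 genes higher and 0 lower with a median of 0.90, with 12 of the original 15 among them, and the actin list had 15 higher with a median of 0.54, with all 14 of the original ones. The genome-wide counts were then 192 higher and 194 lower.

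The adipocyte list went the other way, with 0 of 12 tested genes higher and 7 lower and a median of -1.82. Of the 7, Cidec, Plin1, Retn and Cfd had 0 to 2 UMIs in each sum of Acta2-high cells and could pass the filter on low counts only through Acta2-low cells, so their direction was fixed and the count is a description. Its summed level was 188, 120, 169 and 159 CPM in Acta2-high cells and 242, 446, 600 and 326 in Acta2-low cells, with Plin4 or Fabp4 as its most abundant gene. Adipoq (adiponectin) was at 0.990, 0.403, 1.14 and 0 against 15.7, 34.2, 44.9 and 22.4, and Cidec and Cd36 had 0 UMIs in all 909 members. Adipoq was too low in the Acta2-high sums to pass the filter without Acta2-low sums, so its call is also a description. A UMI of Adipoq, Cidec or Plin1 was seen in 1, 3, 3 and 0 members (0.538%, 1.27%, 1.34% and 0%). It was seen in 48, 54, 93 and 44 Acta2-low cells (2.59%, 2.28%, 3.12% and 1.16%). Without those cells, a choice that itself removes most of the list's UMIs, 7 of the adipocyte genes could be tested and 1 of them, Lpl, was lower. The contractile list then had 14 genes higher, all of them among the original 15, with a median of 1.05. Without H3WT 5-Aza 2 adipocyte genes were lower, Retn and Cfd, and without H3WT DMSO 3 were, Adipoq, Retn and Cfd. None of these 3 genes could pass the filter on low counts without Acta2-low sums, so their calls in these fits say nothing on stability.

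Cell cycle lists were higher in Acta2-high cells of most libraries. The S phase list summed to 1175, 1793, 1017 and 1244 CPM against 663, 765, 784 and 1142, and the G2 and mitosis list to 2499, 4105, 2834 and 2905 against 1385, 1449, 1807 and 3086. H3R26C 5-Aza was the exception for the second list. The median cell was much the same in both classes, with 0.144%, 0.159%, 0.157% and 0.154% of UMIs on these lists against 0.149%, 0.149%, 0.155% and 0.156%. Of these lists 2 of 43 and 2 of 54 genes were past the threshold and higher, with medians of 0.86 and 1.24, beside 2.1% of all genes tested. The counts depended on the setting, with 26 and 34 higher by DESeq2 and 18 and 22 with the top 2%. They were 22 and 40 without H3R26C 5-Aza but 0 and 0 without each of the other libraries. Against Acta2-low cells matched on UMIs the medians were 0.39 and 0.49. In cells at or below their library's median cell cycle share, a choice that itself limits these lists, the medians were -0.08 and 0.07. The contractile list then had 16 genes higher, 0 lower and a median of 1.04, and the actin list 20 higher, 1 lower and a median of 0.53.

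**Figure D4:**
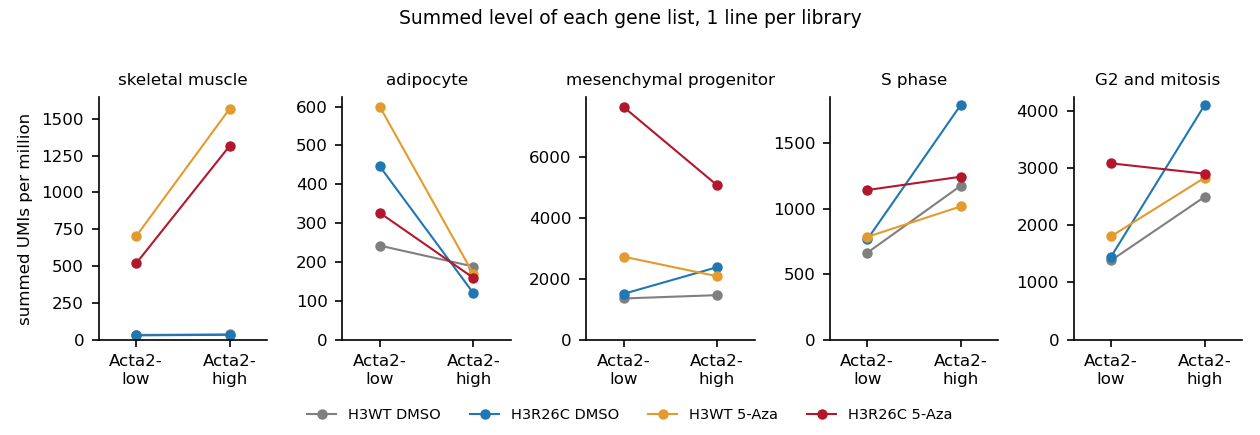
Summed level in CPM of 5 gene lists in Acta2-low and Acta2-high cells, 1 line per library. The skeletal muscle list is between 28.7 and 34.9 in both classes of the DMSO libraries and higher in Acta2-high cells of the 5-Aza libraries, and the adipocyte list is lower in Acta2-high cells of all 4 libraries.

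More UMIs were captured per Acta2-high cell in all 4 libraries. Their median was 26468, 18922, 14765 and 14699 UMIs per cell against 22332, 16087, 13166 and 12931, and 11.8%, 12.7%, 9.82% and 4.96% of them exceeded the 95th percentile of UMIs in their library, against 3.45%, 2.12%, 4.36% and 4.14% of Acta2-low cells. The mitochondrial share was lower in all 4 libraries (3.20%, 2.01%, 2.35% and 2.26% against 3.96%, 2.98%, 2.97% and 2.61%). With 4 libraries an exact sign-flip permutation test (two-sided) cannot go below p = 0.13, the value that both measures gave. No doublet caller was run, and doublets were not tested. Against Acta2-low cells matched on UMIs, 247 genes were higher and 267 lower, and the contractile list had 17 higher, 0 lower and a median of 1.08. Between 24 and 58 kept barcodes were shared by a pair of libraries, and 0 of them were members in both.

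Of the endothelial, blood, osteoblast and chondrocyte lists of 5 genes each, only 3, 1, 1 and 3 genes could be tested, and 0 passed the threshold. Cldn5, a marker of endothelial cells, and Cd52 and Tyrobp, markers of blood cells, were at 0 in both classes. The most abundant osteoblast gene was Runx2 (52.7, 41.1, 36.9 and 34.3 CPM in Acta2-high cells) and the most abundant chondrocyte gene was Sox9 (386, 325, 203 and 133 CPM), both transcription factors. The pericyte list had Rgs4 higher and Vtn lower among 9 tested genes of 12, with Kcnj8 and Higd1b at 0 UMIs in the members and at 3 UMIs each in Acta2-low cells, and with Pdgfrb at 185, 127, 154 and 108 CPM against 188, 186, 162 and 101. Interferon-stimulated genes had 1 of 21 lower (Stat2), the immediate early list 0 of 20 and the heat shock list 0 of 8. Of 18 genes that mark states of this series, Plac8 and Malat1 were lower. None of these pericyte, interferon and state marker calls held without H3WT DMSO or without H3WT 5-Aza, and Stat2 did not pass when any 1 of the 4 libraries was left out. Spp1 (osteopontin) stood at 630, 1615, 1336 and 3629 against 165, 162, 727 and 5217 and did not pass (adjusted p = 0.268).

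Whether the difference between the classes itself depended on treatment was tested with an interaction of class and treatment, with the H3WT and H3R26C libraries of each treatment as the only replicates. By this test 20 genes (0.149%) had a more positive Acta2-high minus Acta2-low difference in the 5-Aza libraries and 41 genes (0.306%) a more negative one, whatever the size of the difference. In 36 of the 61 genes both DMSO libraries moved one way and both 5-Aza libraries the other. Actin cytoskeleton and focal adhesion genes gave 0 calls, and Myl9 was the only contractile gene called (1.61 ± 0.22, adjusted p = 0.0228). With the class by transgene interaction 0 genes (0.0%) were called by edgeR, and DESeq2 also called 0. In the edgeR fit, 163 of the 13389 genes tested had an unadjusted p below 0.05.

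The imprinted growth genes H19 and Igf2, neighbours on chromosome 7, stood out by size. H19, a noncoding RNA, was at 1.58 and 2.22 CPM in Acta2-high cells of H3WT DMSO and H3R26C DMSO against 58.6 and 124 in Acta2-low cells. In H3WT 5-Aza and H3R26C 5-Aza it was at 119 and 317 against 82.2 and 139. The direction was reversed between treatments, and the difference of differences was 6.49 ± 0.34 on the log2 scale (adjusted p = 0.00226). Igf2, an embryonic growth factor, was at 2.18 and 1.61 against 18.4 and 42.5 with DMSO and at 109 and 96.2 against 44.4 and 30.9 with 5-Aza, a difference of 5.47 ± 0.36 (adjusted p = 0.00226).

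Mmp3 (stromelysin) had 0 UMIs in the Acta2-high sums of both DMSO libraries and 18.8 and 57.3 CPM in those of the 5-Aza libraries, against 0.856, 2.64, 7.50 and 18.4 in Acta2-low cells. Its fitted value of 9.96 ± 1.11 (adjusted p = 0.0188) depends on the prior count and is no measure of size. Stmn2, a regulator of microtubules, was at 2.77, 62.9, 0.853 and 35.7 against 0.0713, 2.03, 0.985 and 17.5, a difference of -4.04 ± 0.36 (adjusted p = 0.00226). Tmem176b, a membrane protein gene, was at 16.0, 168, 3.98 and 16.4 against 2.57, 18.6, 6.32 and 36.6, a difference of -3.97 ± 0.26 (adjusted p = 0.00146). It was higher in Acta2-high cells with DMSO and lower with 5-Aza.

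Among the lists, 2 of 38 matrix genes had a more positive difference with 5-Aza. Eln (elastin) was at 359, 67.5, 1210 and 147 CPM against 383, 125, 367 and 43.3, a difference of 2.27 ± 0.24 (adjusted p = 0.0219), and Postn (periostin) gave 1.13 ± 0.16. Of the TGF-beta targets, Thbs1 (2.19 ± 0.21, adjusted p = 0.00341) and Cdkn1a (0.95 ± 0.14) were more positive and Tgfbi was more negative with 5-Aza. The S phase genes Uhrf1, Gmnn, Rrm2 and Chaf1b, 4 of 43 tested, had a more negative difference with 5-Aza, alongside the summed cell cycle levels given above. The part of those levels in the 61 calls was not tested. Tnni2 of the skeletal muscle list and Ifit1 of the interferon list were also more positive, and the state markers Enpp2 and Hopx more negative.

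**Figure D5:**
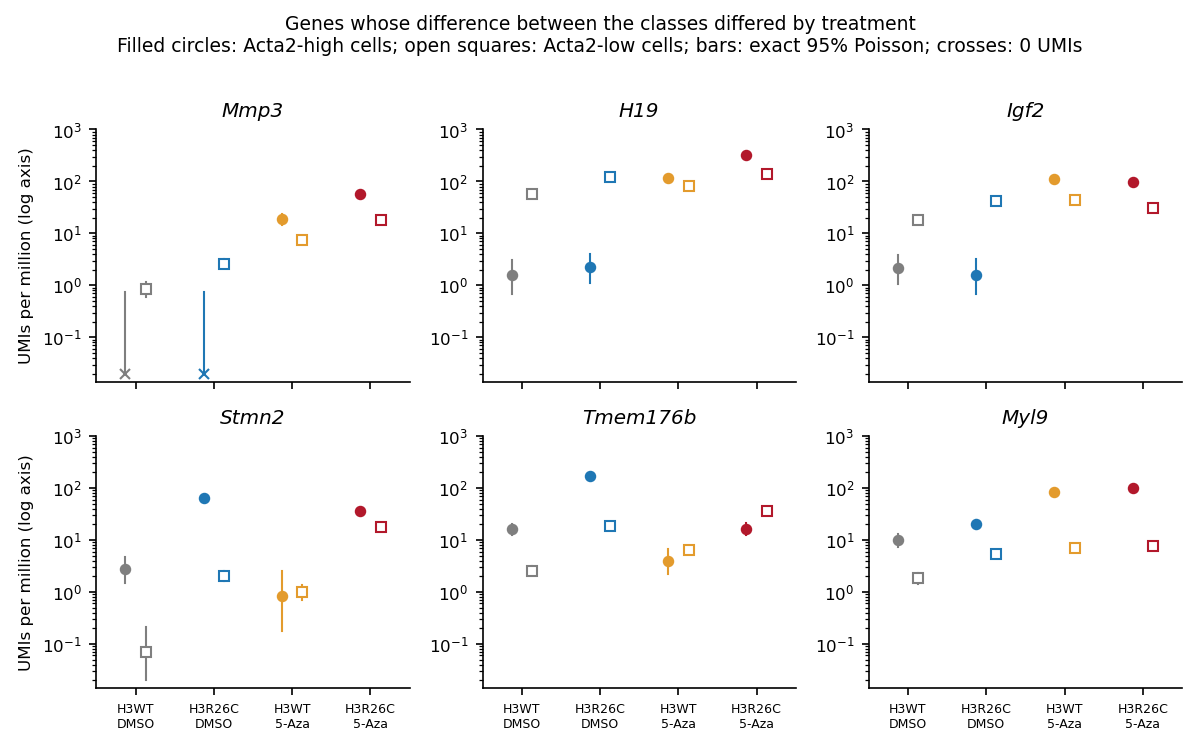
Level in CPM (log axis) of Mmp3, H19, Igf2, Stmn2, Tmem176b and Myl9 in Acta2-high cells (filled circles) and Acta2-low cells (open squares) of each library, with exact 95% Poisson intervals; crosses mark sums with 0 UMIs. H19 and Igf2 are lower in Acta2-high cells of both DMSO libraries and higher in those of both 5-Aza libraries.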

How the data were processed

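Droplet-based single cell RNA libraries of 4 cultures were used, 1 per condition. Per the labels and the study's methods, the authors ran Cell Ranger 6 (6.1.0 per the file headers) with the 10x Genomics mm10 reference, and the deposited matrices hold raw UMI counts of filtered barcodes with no normalization. The authors' limits on UMIs, genes and mitochondrial share were applied again here. Kept libraries held 86871326, 84060490, 84345500 and 110712425 UMIs. The members and gene lists were chosen with earlier results of these data known.

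Raw counts were summed over the cells of each class and library (8 sums), filtered with filterByExpr, normalized by TMM and tested with edgeR 4.0.16 (robust quasi-likelihood, library and class as terms, 3 residual degrees of freedom, 2 with an interaction), with Benjamini-Hochberg adjustment over all genes. SE is the log2 difference divided by the square root of F. The residual is the spread of 1 difference per culture, which may be partly technical. Genes named are the 15 largest rises and 10 largest falls with adjusted p below 0.05, the same sign in 4 libraries and at least 50 CPM in the higher class, the 5 largest of each interaction, and list members with the highest levels. On simulated data for the class comparison (13400 genes), 88% of genes changed by 1 log2 unit and 100% of those changed by 2 were recovered. There, 8 unchanged genes were also called. For the treatment interaction (13387 genes) the recovered shares were 12% and 86%, and 4 unchanged genes were called. Whether these shares hold at the spread between the 4 real libraries was not tested. Positions are from GENCODE M21 (GRCm38), which matched 99.6% of the 32285 feature IDs. DESeq2 1.42.0, RLE factors, other gates, cell filters and left-out libraries were alternatives.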

Additional observations from a re-analysis of the deposited data

Results flagged for a closer look

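For 5 genes the difference between Acta2-high and Acta2-low cells differed between the DMSO and the 5-Aza libraries by a test of that difference (edgeR, adjusted over all genes), on the log2 scale by 6.49 for H19, 5.47 for Igf2, -4.04 for Stmn2 and -3.97 for Tmem176b. The fifth is Mmp3, with 0 UMIs in the Acta2-high sums of both DMSO libraries, so that its fitted 9.96 depends on the prior count and is neither a size nor a bound. Mmp3, H19 and Igf2 were higher in Acta2-high cells of both 5-Aza libraries and lower in those of both DMSO libraries, and Tmem176b was the reverse. Stmn2 was higher in both DMSO libraries and in H3R26C 5-Aza. All 5 stayed past the threshold with DESeq2, with RLE factors and without a filter on low counts. With 2 libraries per treatment, 1 of each transgene, leaving out a library was not run for this comparison.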

How the results depend on the processing

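The labels number no replicates, so no libraries could be paired with each other, and every fit pairs the classes by library. Genes higher numbered 281 in the fit reported, 895 with DESeq2, 564 with the top 2%, 434 against all other cells and 498 in cells at or below the median cell cycle share; genes lower numbered 351, and 641 with DESeq2, 556 without a filter on low counts, 550 with the top 2% and 194 without cells with a Myog, Mymk or Mymx UMI. Left-out libraries gave 3 to 711 higher and 6 to 579 lower. Of the alternatives, 4 were chosen after seeing the data: a sarcomere limit of 0.05%, Acta2 alone as the gate, and leaving out cells with skeletal or adipocyte UMIs. Acta2 in cells chosen by Tagln and Cnn1 stayed higher in each alternative, at 1.97 without a filter, 2.44 with the top 2%, 1.87 against cells matched on UMIs, 2.01 with a stricter cell filter and 1.91 in less cycling cells, and 1.89 to 2.16 with a library left out. Tagln gave 4.95 to 5.48 with a library left out. The treatment interaction called 61 genes, 200 with DESeq2 and 951 without a filter, and the cause was not tested. Shares past a common threshold were 0.566%, 1.35%, 1.54% and 1.48% at the top 2% and 5.36%, 8.44%, 10.0% and 9.74% at the top 10%. Of the 25 genes named for size, 17 stayed past the threshold without the filter on low counts, 18 without cells with a Myog, Mymk or Mymx UMI and 21 with the sarcomere limit of 0.05%. Cnn1 was too low for the reported fit and gave 1.91 (adjusted p = 0.216) without a filter. Depth limits genes with a few UMIs per sum.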
